A study of Mus musculus with 29 samples.

Results

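Of the 10 genes described here, Cd28, Icos, Ctla4, Btla, Pdcd1, Cd226, Tigit, Lag3 and Havcr2 encode checkpoint and costimulatory receptors of the immunoglobulin family. Cd200 encodes an immunoglobulin-family ligand, that of the CD200 receptor, and is counted with the receptors here. The 10 genes were chosen by name, with earlier results of these data known, and each had 1 row in both expression tables of a mouse study. There were 54532 gene IDs in the first table and 55421 in the second. The study measured RNA of splenic CD4 T cells from C57BL/6 mice with a 3' tag kit (QuantSeq FWD), which reads the ends of polyadenylated transcripts, to look for lipid synthesis genes that are higher in regulatory T (Treg) cells and for the part of Smad2 and Smad3 in Acsl6 expression. The cell-type experiment held 3 libraries each of Treg cultures (kept for 5 days in IL-2, 15 ng/ml, plus human TGF-beta, 10 ng/ml), Th0 cultures (also 5 days, with the same IL-2 and no TGF-beta named) and uncultured naive cells. The Smad experiment held 2 libraries each of Treg cultures, all with the same IL-2 and TGF-beta, labelled sgSmad2, sgSmad3, sgSmad2/3 or with no guide RNA named (control). The labels do not say how guides or Cas9 entered the cells, or that replicates are different animals or cultures. The p-values therefore rest on library-to-library spread that may be technical.

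T cells receive a first signal through the T-cell receptor, and receptors of the immunoglobulin family add to it or restrain it. CD28 is the main costimulatory receptor of naive CD4 T cells, CTLA-4 competes with it for the same ligands, CD80 and CD86, and ICOS is a related costimulatory receptor that appears after activation. CTLA-4 is carried in large amounts by Treg cells and takes its ligands away from antigen-presenting cells, and Smad2 and Smad3 carry the signal of the TGF-beta receptor to the nucleus, where it induces Foxp3, the defining transcription factor of Treg cells.

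Cd28 (ENSMUSG00000026012), Ctla4 (ENSMUSG00000026011) and Icos (ENSMUSG00000026009) lie side by side on chromosome 1 (GRCm38.p6), at 60746388 to 60773359, 60909025 to 60915832 and 60960773 to 61000322, with gaps of 135.7 kb and 44.9 kb. Btla (ENSMUSG00000052013, 45223705 to 45252895) and Cd200 (ENSMUSG00000022661, 45382111 to 45409060) lie 129.2 kb apart on chromosome 16, and Pdcd1 (ENSMUSG00000026285) lies farther along chromosome 1 (94038305 to 94052553). All 10 are protein-coding genes. Tigit overlaps Zbtb20 by 8256 bases on chromosome 16, and no source used here says whether reads were counted by strand.

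The RefSeq promoter windows of Ctla4 and Btla, 250 bases before to 50 bases after the start site that the promoter table uses, are shown because these are inhibitory receptors with a promoter entry whose changes in sgSmad2/3 against control libraries had opposite signs. Neither change passed the test described below. The sequences are from RefSeq (GRCm38.p6, chr1:60908775-60909074 and chr16:45224087-45224386, both on the plus strand), 5' to 3'. The Ctla4 window spans the first base of the gene given above, whereas the Btla window lies inside the gene, downstream of its first base, so the table used a later start for Btla. Capitals mark AGAC or its reverse complement GTCT, the short core to which Smad3 binds.
Ctla4: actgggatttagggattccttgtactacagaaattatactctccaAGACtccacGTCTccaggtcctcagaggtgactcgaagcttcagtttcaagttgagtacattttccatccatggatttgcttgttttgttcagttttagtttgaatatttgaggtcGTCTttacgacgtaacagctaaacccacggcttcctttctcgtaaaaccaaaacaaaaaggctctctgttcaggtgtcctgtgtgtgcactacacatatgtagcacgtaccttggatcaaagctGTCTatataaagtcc
Btla: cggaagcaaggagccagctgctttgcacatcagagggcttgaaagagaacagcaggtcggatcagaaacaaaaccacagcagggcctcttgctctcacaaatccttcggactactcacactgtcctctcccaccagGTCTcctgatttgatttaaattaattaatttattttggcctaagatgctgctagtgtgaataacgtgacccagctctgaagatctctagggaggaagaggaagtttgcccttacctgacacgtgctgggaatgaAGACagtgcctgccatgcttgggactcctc
The Ctla4 window held 4 such matches and the Btla window 2. Of 32851 promoter windows of the same length, 88.0% held at least 1 match, the median was 2, 19.9% held at least 4 and 64.8% at least 2. Among the 6 receptors with an entry, Pdcd1 had 3 matches, Tigit and Cd200 had 2 each and Havcr2 had 1. Pdcd1, also inhibitory, changed by -0.58 in sgSmad2/3 at the level of a few tags, and its window is not shown. Whether the number of matches goes with the direction of change was not tested. A match of 4 letters describes the window and shows no binding.

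Levels are given as reads per 1000000 counted reads (CPM), and because each transcript gives tags from its 3' end they are not divided by length. The libraries held 797612 to 1551478 reads in the cell-type experiment and 1294583 to 1602297 in the Smad experiment. Changes are differences of mean log2(CPM + 1), which understate the change of low genes, and a gene was called at an adjusted p below 0.05 from limma (Benjamini-Hochberg over all genes tested). Foxp3 had 138, 191 and 207 CPM in Treg, 13.8, 8.88 and 8.57 CPM in Th0 and 82.7, 91.7 and 88.8 CPM in naive libraries, and all 8 CD4 T-cell markers on the list were above 0 in every library of both experiments. The naive libraries stood apart, with median correlations of 0.845 to 0.846 with the other libraries, against 0.939 to 0.946 for Treg and Th0. In bulk RNA, fewer cells of a type and less RNA per cell cannot be told apart.

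In Treg cultures, Cd28 and Icos were the receptors that passed the test against Th0 cultures, and both fell to less than 0.5 of the Th0 level. Cd28 had 67.8, 59.3 and 75.4 CPM in Treg libraries and 159, 162 and 171 CPM in Th0 libraries. Every Treg library was below every Th0 library, and Cd28 fell by 1.28 on the log2 scale (SE 0.11, fold 0.413, limma adjusted p = 2.91e-07). Icos had 75.4, 71.5 and 63.7 CPM in Treg libraries and 192, 170 and 136 CPM in Th0 libraries. These groups did not overlap either, and Icos fell by 1.22 (SE 0.16, fold 0.430, limma adjusted p = 4.54e-05). Both calls held in all 9 fits that left out a library.

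The inhibitory receptor genes and Cd200 gave no call between Treg and Th0. Btla, whose protein binds HVEM (the product of Tnfrsf14), had 9.69, 7.09 and 11.8 CPM in Treg libraries and 22.2, 21.1 and 13.5 CPM in Th0 libraries. The groups did not overlap, but the change of -0.92 (SE 0.29) missed the threshold (limma adjusted p = 0.0809). It passed with edgeR (adjusted p = 0.0466) and without Th0 replicate 3 (limma adjusted p = 0.0422). Over all alternatives its adjusted p lay between 0.0422 and 0.284. Ctla4 had 12.9, 18.0 and 10.8 CPM in Treg libraries and 12.7, 3.33 and 7.35 CPM in Th0 libraries, which overlapped through Th0 replicate 1. Its change was 0.89 (95% interval 0.01 to 1.76 before adjustment, limma adjusted p = 0.313) and rested on few tags, 12, 28 and 11 reads in Treg and 12, 3 and 6 reads in Th0. Pdcd1, the gene of the PD1 receptor, had 2 to 7 reads per library in Treg and 2 to 4 in Th0, with a change of 0.13 (95% interval -0.86 to 1.12). Cd200, whose protein restrains cells that carry the CD200 receptor, had 1 to 4 reads in Treg and 2 to 5 in Th0, with a change of -0.59 (95% interval -1.71 to 0.52).

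Cd226, a costimulatory receptor for CD155 and nectin-2, had 14.0, 9.02 and 7.84 CPM in Treg libraries and 15.9, 13.3 and 19.6 CPM in Th0 libraries. Treg replicate 1 lay within the Th0 range, and the change of -0.64 (SE 0.28) was not called (limma adjusted p = 0.269). Of the 7 receptors tested, 2 were lower in Treg and 0 were higher, where 2.45% of the 14165 genes tested were called lower and 2.99% higher. At an unadjusted p below 0.05, 4 receptors were lower and 1 was higher, where 1104 of the 14165 genes were lower and 1121 higher. With edgeR 3 were called lower and with DESeq2 2, and neither called one higher. Over all tested genes, every Treg library lay below every Th0 library for 11.2% and above for 10%.

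**Figure D1:**
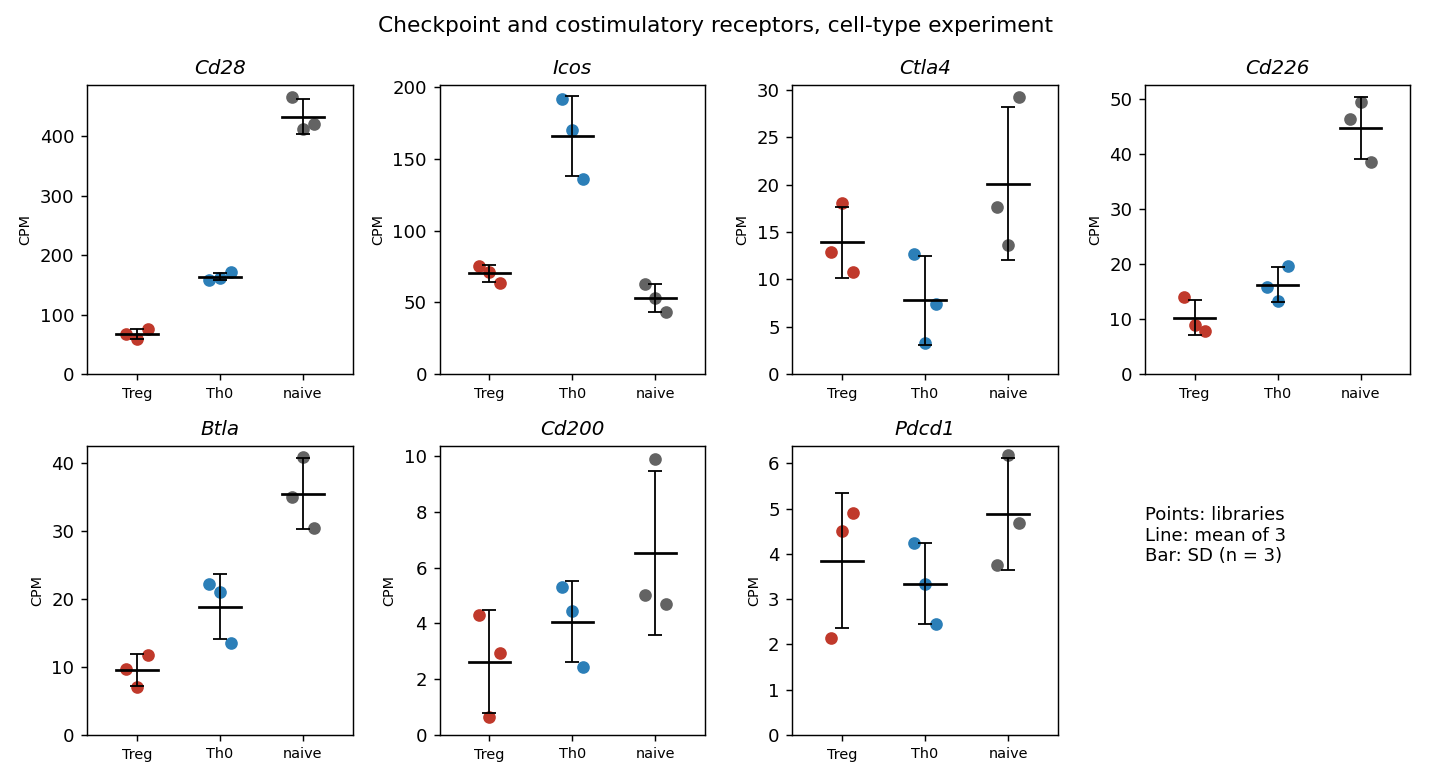
Level of each receptor gene in the cell-type experiment, in CPM (a separate axis from 0 for each gene), in Treg, Th0 and naive libraries, with points for libraries, lines for means and bars for the SD of 3 libraries. Cd28 has the order Treg, Th0, naive from low to high with no overlap, while Icos is highest in Th0 (136 to 192 CPM).

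Against naive cells the cultures divided the costimulatory receptors, with Icos higher in Th0 and Cd28 and Cd226 lower in both cultures. Cd28 had 466, 413 and 420 CPM in naive libraries, above every cultured library. It fell by 2.67 in Treg (SE 0.11, fold 0.157, limma adjusted p = 5.19e-13), and fell by 1.39 in Th0 (SE 0.11, fold 0.381, limma adjusted p = 5.7e-09) relative to naive. Cd226 had 46.4, 49.6 and 38.6 CPM in naive libraries, again above all cultured libraries. It fell by 2.05 in Treg (limma adjusted p = 8.01e-06), and fell by 1.42 in Th0 (limma adjusted p = 0.000433). These comparisons share the naive libraries.

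Icos had 62.7, 53.3 and 43.3 CPM in naive libraries, below all Th0 libraries. In Th0 it was 3.09-fold higher, a change of 1.63 (SE 0.16, limma adjusted p = 1.01e-07). The Treg libraries, at 63.7 to 75.4 CPM, lay just above the naive ones, and that change of 0.41 (SE 0.16) was at the threshold (limma adjusted p = 0.0497). It was lost in 6 of the 9 fits that left out a library (adjusted p up to 0.207), with edgeR (0.137), with DESeq2 (0.288), with TMM scaling (0.121) and with quantile scaling (0.308). The range over all alternatives was 0.0123 to 0.308.

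Btla had 35.1, 40.9 and 30.4 CPM in naive libraries, with no overlap with either culture. It fell by 1.81 in Treg (SE 0.29, fold 0.285, limma adjusted p = 5.22e-05), and fell by 0.89 in Th0 (SE 0.29, fold 0.539, limma adjusted p = 0.0192). The Th0 call for Btla was lost without Th0 replicate 3 (limma adjusted p = 0.0929) or naive replicate 2 (0.0755). Ctla4 had 17.6, 13.6 and 29.2 CPM in naive libraries. These lay above the Th0 libraries and overlapped the Treg ones. Ctla4 fell by 1.35 in Th0 (SE 0.42, fold 0.392, limma adjusted p = 0.014), a call that was lost without Th0 replicate 2 (limma adjusted p = 0.0813) or naive replicate 3 (0.0714). In Treg the Ctla4 change from naive was -0.46 (95% interval -1.34 to 0.41, limma adjusted p = 0.415).

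Pdcd1 and Cd200 were low in naive libraries too, at 3.76, 6.19 and 4.68 CPM for Pdcd1 and 5.01, 9.91 and 4.68 CPM for Cd200. Neither was called in a comparison with naive cells. Treg against naive called 1 of 7 receptors higher and 3 lower, where 23.3% of genes were called higher and 16.5% lower. Th0 against naive called 1 higher and 4 lower, where the shares were 24.3% and 17.6%. Over all tested genes, every Treg library lay above every naive library for 27% and below for 21.1%. For Th0 against naive these shares were 26.7% and 21.8%.

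Naive libraries also carried more tags of B-cell and red-cell genes, and of some markers of myeloid cells and of CD8 T, NK and gamma-delta T cells. The summed level of 10 B-cell markers was 215 to 567 CPM in naive, against 126 to 130 in Treg and 126 to 144 in Th0 libraries. All of these markers but 1 were above 0 in every naive library, and Cd79a and Pax5 were at 0 in all Th0 libraries. The 5 red-cell genes summed to 496 to 1170 CPM in naive, against 0 to 4.51 in Treg and 4.90 to 5.55 in Th0 libraries. For 9 myeloid markers the range was 45.6 to 142 CPM in naive, 50.9 to 61.4 in Treg and 42.9 to 58.8 in Th0, with Lyz2, Csf1r, S100a8, S100a9 and Tyrobp at 0 in both cultures. The 8 markers of CD8 T cells, NK cells and gamma-delta T cells summed to 74.8 to 99.0 CPM in naive, 52.9 to 114 in Treg and 38.0 to 78.4 in Th0. These sums mix unlike genes: Ncr1 had 8.18 to 12.5 CPM in naive and 0 in Treg, and Nkg7 15.2 to 21.1 and 15.7 to 46.3. Against naive, limma called 4 of these 8 lower and 0 higher in each culture. Of 7 tested myeloid markers, 5 were lower and 0 higher in each. Over all genes, 16.5% were lower in Treg and 17.6% in Th0. B cells carry Btla. Foxp3, the defining factor of Treg cells, which carry CTLA-4, had 82.7 to 91.7 CPM in naive and 8.57 to 13.8 CPM in Th0 libraries. The part of any of these cells, Treg cells included, in the values from naive libraries was not tested. Between Treg and Th0 the B-cell sums overlapped.

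Almost no tags came from 3 of the genes. Lag3, whose protein binds MHC class II, and Tigit, the inhibitory counterpart of CD226, were listed at 0 in all 17 libraries. Havcr2, the gene of TIM3, had 1 read in Th0 replicate 2 and none elsewhere. A count of 0 allows up to 3 reads, which is 1.93 to 3.76 CPM in the cell-type libraries and 1.87 to 2.32 CPM in the Smad libraries, for counting error only. These 3 genes were not tested, and the ratio of Tigit to Cd226 had no value.

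The levels of Cd28, Btla and Cd226 varied together over the 9 cell-type libraries, which fall in 3 groups. Pearson's r of log2(CPM + 1) was 0.949 for Cd28 with Btla, 0.942 for Cd28 with Cd226 and 0.868 for Btla with Cd226. Icos did not share this course, with r of -0.259 with Cd28 and -0.729 with Ctla4. Over the 8 Smad libraries, r was 0.815 for Cd28 with Btla. There Cd226 went the other way, with r of -0.952 with Cd28 and -0.863 with Btla. How often other pairs of genes reached such values was not counted. Over all tested genes in the cell-type libraries, the 3 most like Cd28 were Slamf6 (0.996), C230085N15Rik (0.995) and Cd84 (0.994). Slamf6 and Cd84 encode receptors of the SLAM family. For Icos they were Gzmb, the gene of granzyme B (0.981), Dap3 (0.977) and Itga7 (0.973). For Ctla4 they were Ercc5 (0.963), Adamts10 (0.954) and Atp7a (0.947), and for Btla Ms4a6c (0.977), Gm43696 (0.975) and Camk4 (0.974). For Cd226 they were Sik3 (0.989), 2310001H17Rik (0.981) and Pou2f2 (0.980). For Pdcd1 the highest r was 0.941 (Sap30l), then 0.936 (Sdcbp2) and 0.926 (Wdr41), and for Cd200 it was 0.932 (Lins1), then 0.929 (Asxl1) and 0.926 (Cdk7).

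In the Smad experiment, Cd28, Icos and Btla had their highest mean levels in sgSmad2/3 libraries, and Ctla4 and Cd226 their lowest. No receptor passed the test as designed, which kept genes at 1 or more in at least 2 libraries and called 0 of 18347 genes in each guide comparison. The authors had rounded the values of this table to whole CPM. limma's prior degrees of freedom, its measure of how alike the spread is over genes, were 1.65 in this fit and 12.4 with a minimum of 5 CPM, where 10737 genes were tested, and 5 of the receptors remained in the test. The adjusted p below are from the designed fit unless the minimum of 5 CPM is named. 3' tags do not show whether a guide edited its gene. Smad2 was at 12 and 24 CPM in sgSmad2, 13 and 18 in sgSmad2/3, and 37 and 29 in control libraries, and Smad3 was at 26 and 25 in sgSmad3, 41 and 37 in sgSmad2/3, and 30 and 34 in control libraries.

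Cd28 had 67 and 80 CPM in sgSmad2, 89 and 83 in sgSmad3, 107 and 132 in sgSmad2/3, and 43 and 56 in control libraries. Every guide library was above both control libraries, and sgSmad2/3 was above all others. The change from control was 0.57 in sgSmad2 (95% interval 0.12 to 1.02), 0.80 in sgSmad3 (0.35 to 1.25) and 1.26 in sgSmad2/3 (0.81 to 1.71, fold 2.39). The limma adjusted p for sgSmad2/3 was 0.101 as designed and 0.00692 with the minimum of 5 CPM, where Cd28 was called higher. For sgSmad3 it was 0.306, and for sgSmad2 0.738.

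Icos had 101 and 107 CPM in sgSmad2, 77 and 83 in sgSmad3, 127 and 146 in sgSmad2/3, and 77 and 88 in control libraries. The sgSmad3 libraries lay with the controls, and the sgSmad2/3 libraries were highest. Its change was 0.72 in sgSmad2/3 (95% interval 0.43 to 1.01, fold 1.65), with a limma adjusted p of 0.119 and, with the minimum of 5 CPM, 0.0975. In sgSmad2 it was 0.33 (95% interval 0.04 to 0.62) and in sgSmad3 -0.04 (-0.33 to 0.25).

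Btla had 13 and 17 CPM in sgSmad2, 9 and 13 in sgSmad3, 17 and 16 in sgSmad2/3, and 5 and 7 in control libraries. Every guide library was above both controls. The change was 1.2 in sgSmad2 (95% interval 0.51 to 1.88), 0.77 in sgSmad3 (0.09 to 1.45) and 1.34 in sgSmad2/3 (0.65 to 2.02), and none was called (limma adjusted p = 0.415 for sgSmad2, 0.448 for sgSmad3 and 0.212 for sgSmad2/3).

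Ctla4 had 40 and 44 CPM in sgSmad2, 27 and 24 in sgSmad3, 22 and 25 in sgSmad2/3, and 29 and 40 in control libraries. The sgSmad3 and sgSmad2/3 libraries lay below both controls, and the sgSmad2 libraries overlapped them. The change was -0.52 in sgSmad2/3 (95% interval -0.99 to -0.05, limma adjusted p = 0.454), -0.41 in sgSmad3 (-0.87 to 0.06) and 0.29 in sgSmad2 (-0.18 to 0.76). Cd226 had 23 and 23 CPM in sgSmad2, 22 and 22 in sgSmad3, 18 and 19 in sgSmad2/3, and 30 and 28 in control libraries. All guide libraries were below the controls, with changes of -0.32, -0.38 and -0.62 for sgSmad2, sgSmad3 and sgSmad2/3 (limma adjusted p = 0.883, 0.429 and 0.182 in that order). With the minimum of 5 CPM, the limma adjusted p in sgSmad2/3 was 0.479 for Ctla4, 0.398 for Cd226 and 0.126 for Btla. Pdcd1 (1 to 4 CPM) and Cd200 (2 to 5 CPM) were at the level of a few tags in all groups.

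**Figure D2:**
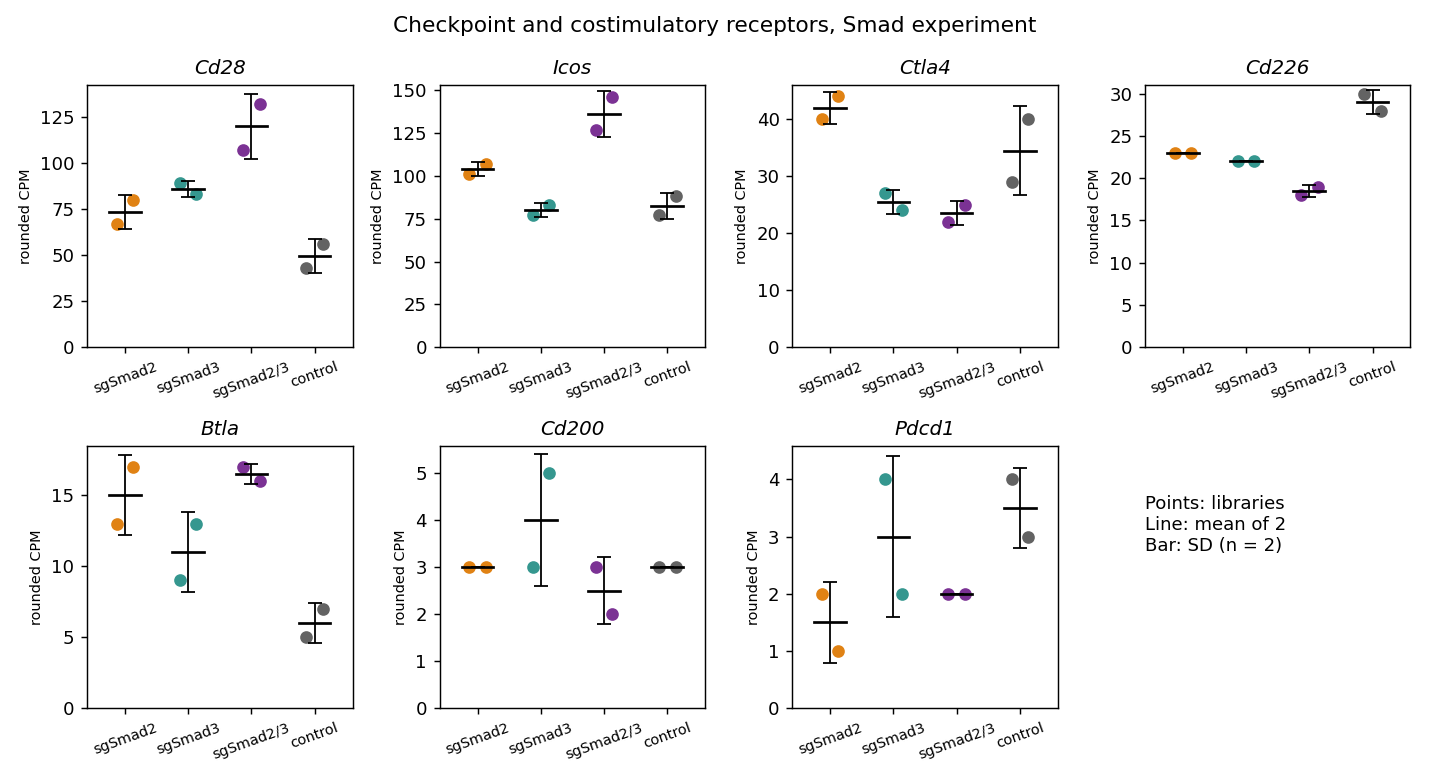
Level of each receptor gene in the Smad experiment, in CPM rounded by the authors (a separate axis from 0 for each gene), in sgSmad2, sgSmad3, sgSmad2/3 and control libraries, with points for libraries, lines for means and bars for the SD of 2 libraries. Cd28 is above both control libraries in all guide groups and highest in sgSmad2/3 (107 and 132), and Cd226 is below them (18 and 19 in sgSmad2/3).

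Over the 7 receptors tested, limma called 0 against control in sgSmad2, sgSmad3 and sgSmad2/3, where 0% of genes were called in either direction. At an unadjusted p below 0.05, 3 receptors were higher and 1 was lower in sgSmad2, 2 higher and 1 lower in sgSmad3, and 3 higher and 2 lower in sgSmad2/3. Of the 18347 genes tested, 556 were higher and 450 lower at that p in sgSmad2, 976 and 866 in sgSmad3, and 877 and 918 in sgSmad2/3. With the minimum of 5 CPM, 1 of 5 receptors was called, Cd28 in sgSmad2/3, where 0.233% of genes were higher and 0.289% lower. In sgSmad2 the shares of genes were 0.00931% higher and 0% lower, and in sgSmad3 0.0559% higher and 0.0373% lower, with 0 receptors called. The 3 comparisons share the control libraries. Groups without overlap were common over all genes: in sgSmad2/3 against control, 16.1% of the tested genes had both guide libraries above both controls and 13.7% had both below. In sgSmad2 the shares were 10.3% above and 8.7% below, and in sgSmad3 15.3% and 12.9%.

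The guides were also compared with each other in the same fit, and no receptor was called where 0% of genes were called. In sgSmad2/3 against sgSmad2, Ctla4 had a change of -0.81 (95% interval -1.28 to -0.35, limma adjusted p = 0.369), Cd28 0.69 (0.24 to 1.14, 0.478) and Icos 0.39 (0.09 to 0.68, 0.55). In sgSmad2/3 against sgSmad3, Icos had 0.76 (95% interval 0.47 to 1.05, limma adjusted p = 0.171) and Cd28 0.46 (0.01 to 0.91, 0.787). In sgSmad3 against sgSmad2, Ctla4 had -0.70 (95% interval -1.17 to -0.23, limma adjusted p = 0.459) and Icos -0.37 (-0.67 to -0.08, 0.489). At an unadjusted p below 0.05 there were 2 receptors higher and 1 lower in sgSmad2/3 against sgSmad2, 2 higher and 0 lower against sgSmad3, and 0 higher and 2 lower in sgSmad3 against sgSmad2. Over all 18347 genes, 620 were higher and 791 lower in sgSmad2/3 against sgSmad2, 560 and 586 in sgSmad2/3 against sgSmad3, and 761 and 844 in sgSmad3 against sgSmad2. The change in sgSmad2/3 less the 2 single-guide changes added together was 0.43 for Icos (95% interval 0.02 to 0.84, limma adjusted p = 0.834), the 1 receptor at an unadjusted p below 0.05 (498 genes were higher and 553 lower), and -0.10 for Cd28 (-0.74 to 0.53).

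Cd28, Icos and Btla, lower in Treg than in Th0 libraries, were higher in sgSmad2/3 than in control libraries, and Ctla4 had the opposite signs. Cd226 had a negative change in both, and so had Cd200 (-0.59 and -0.21). Pdcd1 had 0.13 and -0.58, and Cd200 and Pdcd1 rested on few tags. How often all tested genes had opposite signs in the 2 comparisons was not counted. The plot of the changes sets the 2 comparisons, which share no library, side by side. Of all these changes, those of Cd28 and Icos in Treg against Th0 were called as designed, and Cd28 in sgSmad2/3 with the minimum of 5 CPM.

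**Figure D3:**
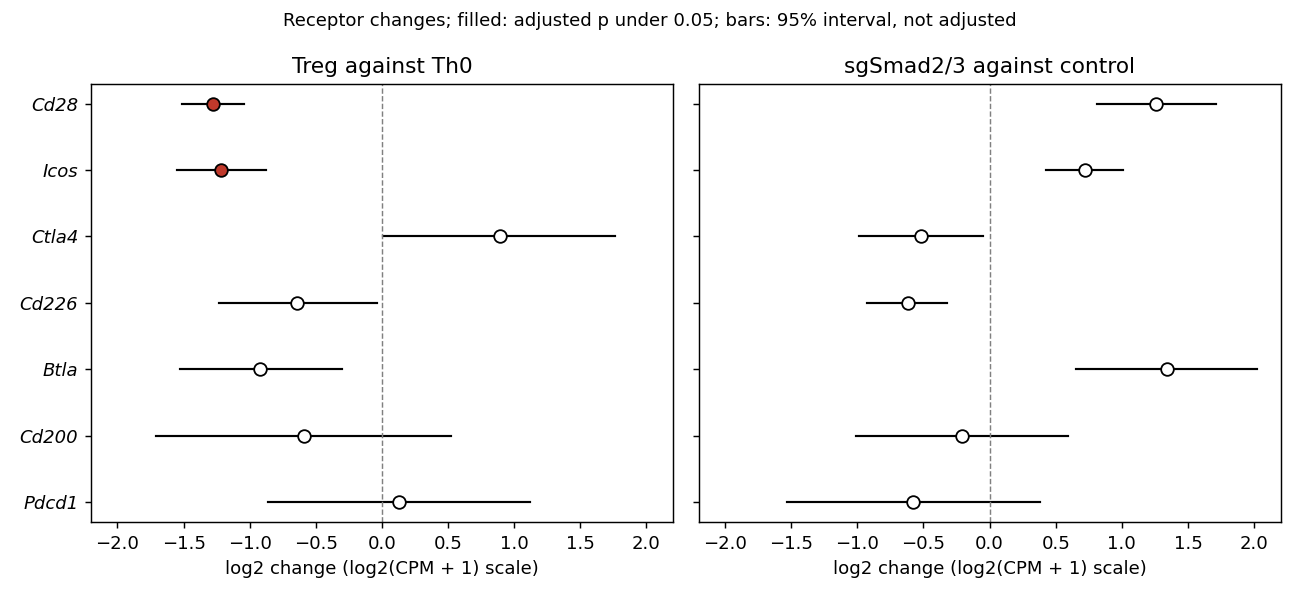
Change of each receptor gene in Treg against Th0 (left) and in sgSmad2/3 against control (right), as the difference of mean log2(CPM + 1), with 95% intervals that are not adjusted for the number of genes. Filled points passed an adjusted p of 0.05: Cd28 (-1.28) and Icos (-1.22) on the left, and none on the right.

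Because CTLA-4 and CD28 share their ligands, the tags of Ctla4 were set against those of Cd28 within each library. There were 19.0, 30.4 and 14.3 Ctla4 tags per 100 Cd28 tags in Treg libraries, 8.0, 2.05 and 4.29 in Th0 libraries, and 3.76, 3.30 and 6.96 in naive libraries. Every Treg library was above every Th0 and naive library, and the Th0 and naive libraries overlapped. The mean log2 ratio differed by 2.16 between Treg and Th0 and by 2.2 between Treg and naive, and by 0.04 between Th0 and naive. In Treg against naive, Ctla4 changed by -0.46 (not called) and Cd28 by -2.67, so the higher ratio went with lower Cd28 and no higher Ctla4. In Treg against Th0 the changes were 0.89 for Ctla4 (not called) and -1.28 for Cd28. With 3 libraries against 3 the exact permutation test (two-sided) cannot go below p = 0.1, and it gave p = 0.1 for both Treg comparisons and p = 1 for Th0 against naive.

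In the Smad experiment the ratio was 59.7 and 55.0 per 100 in sgSmad2, 30.3 and 28.9 in sgSmad3, 20.6 and 18.9 in sgSmad2/3, and 67.4 and 71.4 in control libraries. The groups did not overlap, in the order sgSmad2/3, sgSmad3, sgSmad2, control from low to high. The log2 ratio differed from control by -0.28 in sgSmad2, -1.2 in sgSmad3 and -1.78 in sgSmad2/3, and by -0.58 between sgSmad2/3 and sgSmad3. It differed by -1.50 between sgSmad2/3 and sgSmad2 and by -0.93 between sgSmad3 and sgSmad2. These are 9 differences with the 3 above, and 2 libraries against 2 cannot give an exact permutation p below 0.333, the value of each of the 6 here. Adjusted by Benjamini-Hochberg over the 9 differences, the exact p was 1 for Th0 against naive and 0.375 for the others. In sgSmad2/3 against control, Cd28 changed by 1.26 and Ctla4 by -0.52. In sgSmad3 against control, Cd28 changed by 0.80 and Ctla4 by -0.41. The ratio compares tags of genes with different 3' ends, so it is read between libraries only, and not between the experiments, whose tables were made separately. The control libraries carry the same culture labels as the Treg libraries of the cell-type experiment, yet had 67.4 and 71.4 against 14.3 to 30.4. The sgSmad2/3 values, 20.6 and 18.9, lay within that Treg range. The cause of this difference between experiments was not tested.

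**Figure D4:**
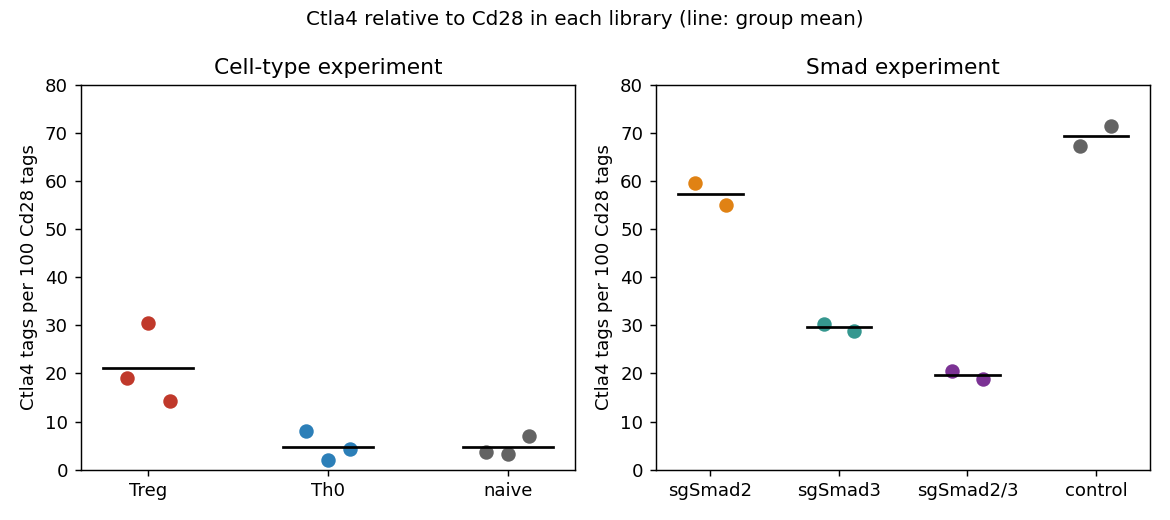
Ctla4 tags per 100 Cd28 tags in each library of the cell-type experiment (left; Treg, Th0, naive) and the Smad experiment (right; sgSmad2, sgSmad3, sgSmad2/3, control), with points for libraries and lines for group means. Treg libraries (14.3 to 30.4) are above Th0 and naive libraries, and sgSmad2/3 libraries (18.9 and 20.6) are below the control (67.4 and 71.4).

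Marker lists of other cells were summed in each library as well. The 9 myeloid markers summed to 44 and 68 CPM in sgSmad2, 91 and 48 in sgSmad3, 92 and 127 in sgSmad2/3, and 37 and 54 in control libraries, and Itgam was at 0 in every library. The 5 red-cell genes summed to 25 and 24 CPM in sgSmad2, 87 and 32 in sgSmad3, 70 and 144 in sgSmad2/3, and 19 and 13 in control libraries. The B-cell sums were 90 and 97 in sgSmad2, 109 and 94 in sgSmad3, 124 and 93 in sgSmad2/3, and 108 and 113 in control libraries, with Ms4a1 at 0 in sgSmad2, sgSmad3, sgSmad2/3 and control. Markers of CD8 T cells, NK cells and gamma-delta T cells summed to 46 and 30 in sgSmad2, 45 and 32 in sgSmad3, 36 and 29 in sgSmad2/3, and 41 and 38 in control libraries. The sum of the 8 CD4 T-cell markers was 3100 and 4000 CPM in sgSmad2, 4660 and 4280 in sgSmad3, 4180 and 4300 in sgSmad2/3, and 3260 and 3900 in control libraries. Their part in the receptor values was not tested.

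Ligands of the receptors, a list that also held Cd200r1 as the partner of Cd200, were measured in the same T cells. In Treg against Th0, 0 of 14 tested ligand genes were called by limma (2 higher and 1 lower at an unadjusted p below 0.05), and edgeR and DESeq2 each called 1 higher. Over all 14165 genes tested, limma called 2.99% higher and 2.45% lower, and 1121 were higher and 1104 lower at that unadjusted p. Against naive cells, 6 were higher and 3 lower in Treg (23.3% and 16.5% over all genes). In Th0, 4 were higher and 3 lower (24.3% and 17.6% over all genes). With the minimum of 5 CPM and with DESeq2 these counts were 4 higher and 3 lower in Treg, and 2 higher and 2 lower in Th0, and with edgeR 5 and 3 in Treg and 2 and 4 in Th0. Lgals3, the gene of galectin-3, had 51.7, 72.2 and 50.9 CPM in Treg, 28.6, 35.5 and 18.4 in Th0, and 1.25, 9.91 and 7.01 in naive libraries, and rose by 3.33 in Treg and 2.24 in Th0 relative to naive (limma adjusted p = 3.75e-06 and 0.0003). Icosl, the ligand of ICOS, had 15.1, 18.7 and 10.8 CPM in Treg and 3.76, 3.72 and 3.51 in naive libraries (log2 change 1.73, limma adjusted p = 0.00253). Nectin3 had 3.23, 1.93 and 7.84 CPM in Treg and 1.06, 1.11 and 2.45 in Th0 libraries, and the naive libraries had it at 0. Cd200r1, the receptor for CD200, fell by 1.54 in Treg relative to naive (limma adjusted p = 0.0226). Tnfrsf14, the BTLA ligand, had 0, 1.11 and 0 CPM in Th0 and 7.52, 1.24 and 4.68 CPM in naive libraries (limma adjusted p = 0.0125).

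Among 19 tested genes of other immunoglobulin-family and SLAM-family receptors, 3 were higher and 6 lower in Treg than in Th0. Over all genes tested, 2.99% were called higher and 2.45% lower. Cd96, a receptor for CD155 like CD226 and TIGIT, had 79.7, 72.8 and 74.4 CPM in Treg, 11.7, 20 and 13.5 in Th0, and 90.3, 63.2 and 67.8 in naive libraries. The Treg and naive libraries overlapped and all Th0 libraries lay below both, with a change of 2.29 in Treg against Th0 (SE 0.21, limma adjusted p = 4.1e-07). Cd101, an inhibitory receptor, was higher by 2.38 in Treg than in Th0 (limma adjusted p = 0.000654). Slamf6 fell by 1.52 (limma adjusted p = 0.000321) and Slamf7 fell by 1.90 (limma adjusted p = 0.0342) in Treg relative to Th0. Against naive, 5 were higher and 9 lower in Treg and 4 higher and 8 lower in Th0. The shares over all genes were 23.3% higher and 16.5% lower in Treg, and 24.3% and 17.6% in Th0. Crtam, an activation-linked receptor, fell by 3.61 in Treg and fell by 3.43 in Th0 relative to naive, and Cd7 fell by 2.84 in Treg. In Th0 libraries Cd7 had 0, 0 and 1.22 CPM, against 13.8, 16.1 and 21 CPM in naive libraries (limma adjusted p = 6.27e-06).

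Signalling partners and trafficking proteins of the receptors gave calls in both directions. In Treg against Th0, 3 of 24 signalling genes were higher and 4 lower, where 2.99% of all genes tested were higher and 2.45% lower. Ubash3b, a phosphatase that restrains T-cell receptor signalling, had 73.2, 112 and 105 CPM in Treg and 33.9, 22.2 and 18.4 in Th0 libraries, and rose by 1.94 (SE 0.21, limma adjusted p = 4.93e-06). Ptpn6, the gene of the phosphatase SHP1, which inhibitory receptors recruit, rose by 0.73 (limma adjusted p = 0.000188). Sh2d1a, the adaptor of SLAM-family receptors, fell by 1.07 (limma adjusted p = 0.0184), and Themis fell by 0.89 (limma adjusted p = 6.32e-05). Of 15 trafficking genes 1 was higher, Lax1 (1.66, limma adjusted p = 0.00412), and 1 lower, Trat1 (-0.83, limma adjusted p = 0.0189). Against naive, 4 signalling genes were higher and 12 lower in Treg, and 3 higher and 14 lower in Th0. Over all genes tested, 23.3% were higher and 16.5% lower in Treg, and 24.3% and 17.6% in Th0. Prkcq, the kinase that passes on the CD28 signal, fell by 1.53 in Treg and fell by 1.65 in Th0. Pik3ip1, an inhibitor of PI3 kinase, fell by 2.22 in Treg and fell by 1.81 in Th0. Akt1 rose by 1.35 in Treg and 1.37 in Th0 (limma adjusted p = 6.81e-08 and 4.78e-08). Of the trafficking genes, 7 were higher and 3 lower in Treg, and 6 higher and 5 lower in Th0. DESeq2 called 4 of them higher in Treg and 3 in Th0, and edgeR 5 lower in Treg. Lrba, which protects CTLA-4 from breakdown, fell by 1.15 in Treg and fell by 1.28 in Th0, while Rab11a, a GTPase of recycling vesicles, rose by 0.99 and 1.05.

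Transcription factors known to control these receptors were mostly called against naive, with 7 higher and 13 lower of 23 in Treg and 6 higher and 14 lower in Th0. The shares over all genes were 23.3% higher and 16.5% lower in Treg, and 24.3% and 17.6% in Th0. Nr4a1, an early target of T-cell receptor signalling, had 9.69, 3.87 and 12.7 CPM in Treg, 9.54, 4.44 and 2.45 in Th0, and 255, 233 and 306 in naive libraries. Nr4a3 fell by 3.50 in Treg and fell by 4.61 in Th0, and Tcf7, a factor of naive and memory T cells, fell by 3.53 in Treg relative to naive (limma adjusted p = 3.32e-13). In Treg against Th0, 6 were higher and 2 lower, with 10 higher by edgeR and 1 lower by DESeq2. By limma, 2.99% of all genes tested were higher and 2.45% lower. Foxp3 was higher by 3.99 (SE 0.19, limma adjusted p = 2.29e-10), Maf by 1.40 (limma adjusted p = 0.000172) and Ikzf4, the gene of Eos, by 1.14 (limma adjusted p = 3.39e-06). Prdm1, the gene of Blimp1, fell by 1.24 (limma adjusted p = 0.0245).

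In sgSmad2/3 against control, limma called 0 genes of these lists as designed, and with the minimum of 5 CPM 2 of the other receptors, 1 signalling gene and 1 transcription factor were lower and 1 trafficking gene was higher. Over all genes tested with that minimum, 0.233% were called higher and 0.289% lower. Cd96 had 50 and 46 CPM in sgSmad2/3 and 102 and 81 in control libraries (log2 change -0.91, limma adjusted p = 0.0497). Cd101 had 14 and 15 CPM in sgSmad2/3 and 32 and 40 in control libraries (-1.25, limma adjusted p = 0.0401). Ubash3b had 40 and 66 CPM in sgSmad2/3 and 147 and 121 in control libraries (-1.36, limma adjusted p = 0.00942), and Maf 44 and 58 in sgSmad2/3 and 101 and 130 in control libraries (-1.17, limma adjusted p = 0.0372). Trat1 had 63 and 60 CPM in sgSmad2/3 and 25 and 24 in control libraries (1.29, limma adjusted p = 0.00692). Each of these 5 genes had the opposite sign in Treg against Th0, but the share of all called genes that did so was not counted. The red-cell gene Hba-a1, called higher by the same test, had 50 and 70 CPM in sgSmad2/3 and 12 and 12 in control libraries (2.21, limma adjusted p = 0.000435).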

How the data were processed

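The authors deposited 1 table per experiment. The cell-type values were CPM: each of 9 columns summed to 1000000, and 100% of values were whole multiples of 1 read (tolerance 0.01), from which reads were worked out. The Smad values, deposited after rounding of CPM to whole numbers, were handled as a score, and an unnamed last line that gives the worth of 1 read was not treated as a gene. The remaining column, gene length per the file headers, was not used. Per the submitters' processing notes, mm10, deepTools, Bowtie2, Subread 2.0.1 and STAR 2.7.9a are named, with no role or order. No source used here gives the annotation or strand setting. Gene names in the tables matched the reference table for 54409 of 54532 and 55154 of 55421 IDs.

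Genes at 1 CPM or more in at least 3 (cell-type) or 2 (Smad) libraries were kept. limma 3.58.1 in R 4.3.3 was fitted with an intensity trend to log2(CPM + 1) over all libraries of a table, and tested on simulated data. There it recovered most changes with few false calls in the cell-type table and, with the minimum of 5 CPM, in the Smad table. With the minimum of 1 CPM in the rounded Smad table, most of its calls were false and most of the smaller changes were missed. The simulated libraries were independent and every gene had the same spread beyond counting error, so false calls in the real tables may differ. edgeR 4.0.16 and DESeq2 1.42.0 on the reads of the cell-type table, another pseudocount, filter, scaling or trend, 2 groups only, a replicate block and leaving out each library were alternatives. The plan had expected TPM. The receptors and lists were chosen with earlier results of these data known. All 10 receptors are named, and of each other list up to 4 called genes with the largest change per comparison. An Acsbg1 experiment (4 RNA libraries) and 8 ATAC libraries were not analysed here.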

Additional observations from a re-analysis of the deposited data

How the results depend on the processing

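Of 1299 values of single receptors under alternative settings, 1277 kept their side of the threshold, 19 lost a call, 3 gained one and 0 changed sign where called. In 5 results that were never called the sign changed in 9 settings. The count of receptors called higher in Treg against naive, 1 (Icos), was 0 with a pseudocount of 0.1, no filter, quantile scaling, TMM scaling, no intensity trend, 2 groups only, edgeR, DESeq2 and, added after seeing the data, without Gm42418, a locus that overlaps ribosomal RNA, and 0 to 1 when 1 library was left out. The receptors called lower numbered 2 to 3 in Treg against Th0 and 3 to 4 in Th0 against naive when 1 library was left out. In sgSmad2/3 against control, receptors called higher numbered 1 with the minimum of 5 CPM and 0 as designed. The Ctla4 to Cd28 difference between Th0 and naive, 0.04, was -0.08 with a pseudocount of 0.1 and -0.38 to 0.47 when 1 library was left out. With a pseudocount of 5 it was -1.11 for sgSmad3 and -1.65 for sgSmad2/3 against control, -1.39 for sgSmad2/3 and -0.84 for sgSmad3 against sgSmad2. With a replicate block the receptors called lower were still 2 in Treg against Th0, 3 in Treg against naive and 4 in Th0 against naive, and no call of a receptor changed. Same-numbered libraries shared no deviations beyond a mean correlation of 0.0374 over genes, except control with sgSmad2 (0.215). Control and sgSmad2 replicates 1 had 16547 and 16641 genes above 0, and replicates 2 had 14793 and 14798. The labels give no pairing, and the numbers were not taken as pairs. In sgSmad2 against control the shared part stayed in the spread of the main test, and the replicate block also called 0 genes there.

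The count of all genes called in Treg against Th0, 770, was 453 without the intensity trend and 503 without Treg replicate 2, and the count tests on whole reads called 1066 (edgeR) and 599 (DESeq2). Each guide comparison called 0 genes as designed. On simulated data for sgSmad2 against control, the minimum of 1 CPM gave many false calls after rounding and the minimum of 5 CPM few. The simulation, with the same spread for every gene and independent libraries, does not vouch for the minimum of 5 CPM in the real table. The counts below at the minimum of 1 CPM, whose settings were not simulated, are not read as changed genes. With a pseudocount of 0.1, sgSmad2 called 185, sgSmad3 178 and sgSmad2/3 178, with no intensity trend 175, 158 and 164 in that order, with 2 groups only 444, 519 and 508, and with the minimum of 5 CPM 1, 10 and 56. Between guides, the 0 calls as designed became 127 (pseudocount 0.1), 151 (no intensity trend), 513 (2 groups only) and 11 (minimum of 5 CPM) for sgSmad2/3 against sgSmad2, 151, 152, 514 and 5 in that order for sgSmad3 against sgSmad2, and 119 (no intensity trend), 385 (2 groups only) and 2 (minimum of 5 CPM) for sgSmad2/3 against sgSmad3. Depth limits the receptors with few tags, such as Pdcd1 at 2 to 7 reads per Treg library. The cause of these changes was not tested.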
